A study of Mus musculus with 9 samples.

Results

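The Bcl2 family holds the proteins that decide whether a mitochondrion releases the proteins that start apoptosis, and 10 of its genes are described here in the mouse left ventricle after ischemia-reperfusion (I/R). They are a list of symbols, with no value in its rule, and all 10 were found among the 38293 genes of the count table and passed the filter on low counts. They are Bcl2, Bcl2l1, Bcl2l2, Mcl1, Bax, Bak1, Bid, Bcl2l11, Bbc3 and Pmaip1. RNA came from 9 male C57BL/6 mice aged 8 weeks. Mice 1, 2 and 3 had sham surgery, and I/R mice had the left anterior descending artery tied for 1 hour and then reopened, with tissue taken at 1 day (mice 4, 5 and 6) or at 14 days (3 libraries). All groups, sham included, carry the same tissue label, the infarcted region, and no label says when sham tissue was taken. At 14 days the 3 count columns have 1 name in common, that of mouse 7, and are called libraries A, B and C; that they are 3 mice rests on the sample labels.

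Proteins of the family fall into 3 classes. Bcl2, Bcl2l1 (Bcl-xL), Bcl2l2 (Bcl-w) and Mcl1 bind and restrain the others and so keep cells alive. Bax and Bak1 assemble in the outer mitochondrial membrane and open it, which lets cytochrome c out to activate caspases. The BH3-only proteins Bid, Bcl2l11 (Bim), Bbc3 (Puma) and Pmaip1 (Noxa) carry stress signals to the other classes. In the heart, opening of the outer membrane is a known route of cardiomyocyte loss after reperfusion. Both I/R time points were compared with sham and with each other, for each class of transcripts.

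Total counts ran from 20215781 to 36816818 a library, and the depth bears on counting error only. One count was worth between 0.0226 and 0.0639 CPM, which is counts per 1000000 of the TMM-scaled library (TMM evens out libraries by the bulk of their genes). Mitochondrially encoded genes took 65.0% to 71.8% of counts in sham, 52.0% to 63.3% at 1 day and 65.0% to 68.8% at 14 days. Summed cardiomyocyte markers (8 genes) lay between 22170 and 24320 CPM in sham, at 9699, 8119 and 15230 CPM in mice 4, 5 and 6, and between 15890 and 21610 CPM at 14 days, so the defining markers of the labelled tissue were present in every library. Summed neutrophil markers (7 genes, with Retnlg and Mmp8 at 0 in 1 or more libraries) were 111, 129.7 and 47.7 CPM in mice 4, 5 and 6 and at most 4.54 CPM elsewhere. Summed macrophage and monocyte markers (9 genes) were 249.2, 265.1 and 241.2 CPM in mice 4, 5 and 6 and at most 143.1 CPM in sham. For cardiomyocyte and neutrophil markers mouse 6 stood nearer to sham than mice 4 and 5. The part of these cell types in the values of the Bcl2 family was not tested. In bulk tissue, fewer cells of a type and less RNA per cell cannot be told apart.

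At 1 day after I/R, 6 of the 10 genes rose against sham, namely Bax, Bak1, Bid, Pmaip1, Bcl2l1 and Bcl2l2, and Bcl2l11 fell (edgeR quasi-likelihood test, Benjamini-Hochberg adjusted p under 0.05). Bcl2, Mcl1 and Bbc3 were not called. The 7 calls are to be read against a background in which 54.2% of all 14124 tested genes were called, 29.4% higher and 24.8% lower, so a call at 1 day was common among genes. CPM of 7 members was higher in every 1-day library than in every sham library, and that of Bcl2l11 lower, where 63.2% of all genes did not overlap, 33.5% higher and 29.7% lower. The median log2 fold of the 10 genes was 0.77, beside 0.05 over all tested genes. With total counts in place of TMM scaling the median of all genes rose by 0.48 to 0.53, all 10 members were called (9 higher), and the split over all genes was 6860 higher and 1057 lower in place of 4153 and 3496. Without mouse 6, 8 members were called, the added one being Bbc3. Folds below are those with TMM scaling.

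**Figure D1:**
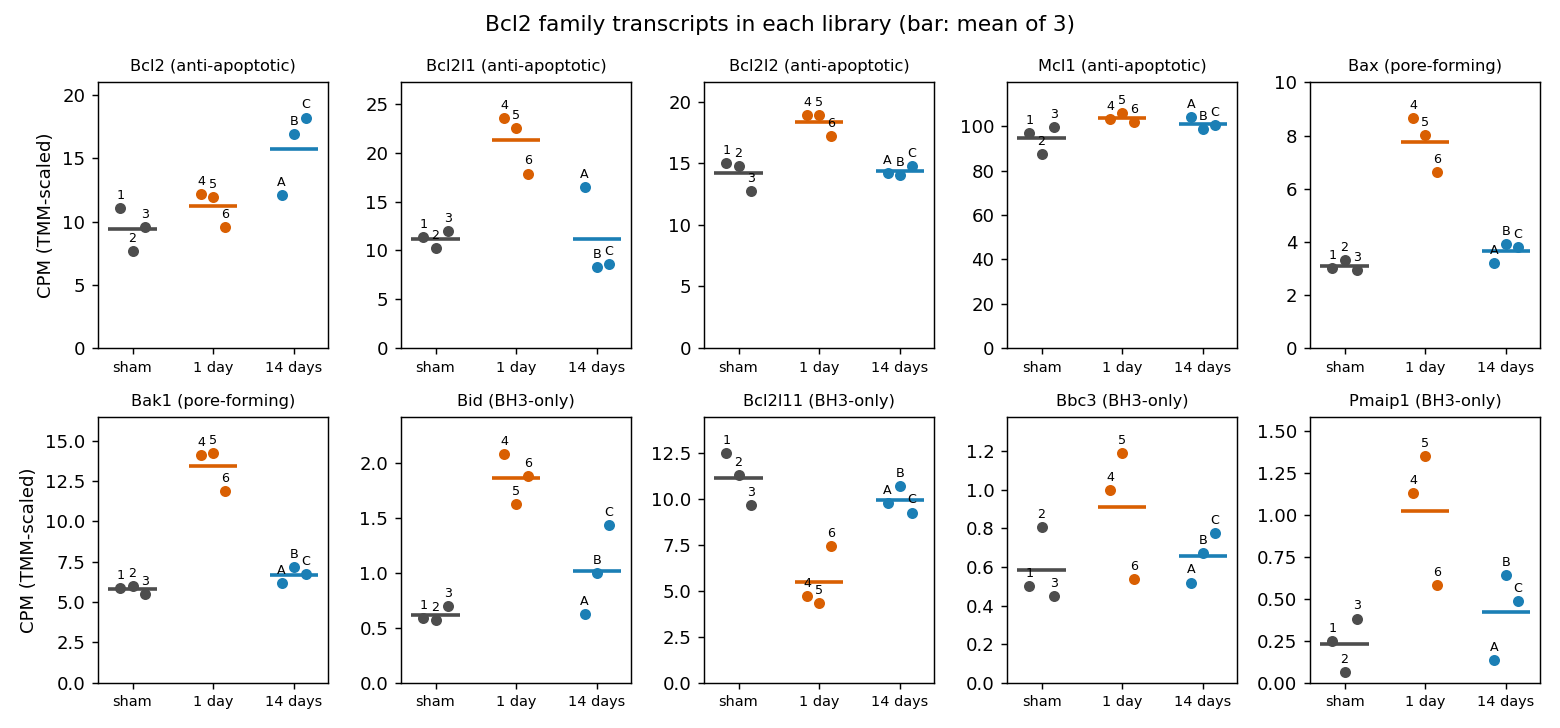
Points give the CPM of each member in each of the 9 libraries (numbered by mouse, or A to C at 14 days), bars the mean of 3, and each vertical axis starts at 0. Bax and Bak1 stand at 6.63 CPM or more and 11.9 CPM or more in all 1-day libraries, above every library of both other groups, while Bcl2l11 is lower in all 1-day libraries than in any other.

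Bax and Bak1, which form the pore, rose together at 1 day. Bax (ENSMUSG00000003873, GRCm38 chr7:45461697-45466898, minus strand) had 3.02, 3.30 and 2.94 CPM in sham mice 1, 2 and 3, then 8.65, 8.02 and 6.63 CPM in mice 4, 5 and 6. All 1-day libraries were higher than every sham library, with means of 3.08 ± 0.192 and 7.77 ± 1.03 CPM (SD, n = 3 per group), a log2 fold of 1.33 (SE 0.14, adjusted p = 5.58e-05) or 2.51-fold. Bak1 (ENSMUSG00000057789, chr17:27019810-27029009, minus strand) had 5.90, 6.0 and 5.50 CPM in sham and 14.1, 14.3 and 11.9 CPM at 1 day. The groups did not overlap, with a log2 fold of 1.21 (SE 0.11, adjusted p = 2.42e-05) or 2.31-fold. Both calls held under all 18 alternatives each. Exons of Bax share 12.2% of their bases with another gene on the same strand, and those of Bak1 share 25.5% with a gene on the opposite strand, so some of these counts are uncertain.

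Bax is a textbook target of the tumor suppressor p53, so the stretch before its RefSeq start (GRCm38.p6, chr7:45466899-45467109, minus strand, 211 bases) is shown, with a p53 half-site match and a CACGTG E-box, 9 to 4 bases before the start, in capitals.
Bax: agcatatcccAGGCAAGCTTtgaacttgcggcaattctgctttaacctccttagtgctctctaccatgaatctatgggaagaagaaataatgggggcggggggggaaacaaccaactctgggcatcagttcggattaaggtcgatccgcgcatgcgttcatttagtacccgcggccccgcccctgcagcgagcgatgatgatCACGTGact
Of 32817 RefSeq promoter windows of 300 bases (250 before and 50 after a start), 8.36% held a p53 half-site and 7.15% a CACGTG on either strand. Among the 14 windows of 9 members the p53 half-site was found in Bax alone and CACGTG in Bax and Bbc3. A match describes the letters and is not evidence of binding.

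Other motifs were searched on both strands of the same windows, and the matches did not overlap the ones shown in capitals. GGGCGG (GC box) was in 7 members (10 of the 14 member windows) and 35.6% of all windows, and CCAAT in 2 members (3 of 14) and 37.4%. An NF-kB match was in Bcl2l1 and Bbc3 (2 of 14 member windows) and in 4.50% of all windows. TGACGTCA (1.79% of all windows), TGANTCA (7.81%), TTCNNNGAA (8.29%) and TATAAA (13.6%) were in 0 of the member windows.

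The BH3-only genes did not move one way. Bid (ENSMUSG00000004446, chr6:120891930-120916853, minus strand), whose protein is cut by caspase 8 and links death receptors to mitochondria, had 0.586, 0.573 and 0.703 CPM in sham and 2.08, 1.63 and 1.88 CPM at 1 day. No 1-day library came near sham, and the log2 fold was 1.61 (SE 0.30, adjusted p = 9.83e-04) or 3.06-fold. Its counts were low (42 over the sham libraries, 175 at 1 day), and 17.7% of its exonic bases are shared with Bcl2l13 on the opposite strand, a gene with 42.3 CPM in sham that fell at 1 day. Pmaip1 (ENSMUSG00000024521, chromosome 18, 66458533 to 66465565, plus strand), whose protein binds mainly Mcl1, had 6, 2 and 6 counts in sham and 50, 34 and 13 counts in mice 4, 5 and 6. That is 0.251, 0.0674 and 0.383 CPM against 1.13, 1.35 and 0.583 CPM, with mouse 6 the nearest to sham. Its log2 fold of 2.30 (SE 0.60, adjusted p = 0.00716) was the largest of the 10 and the least precise, with a 95% interval from 0.99 to 3.61.

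Bcl2l11 went the other way. This gene (ENSMUSG00000027381, chr2:128126038-128162547, plus strand) encodes Bim, a BH3-only protein that binds all the anti-apoptotic members. It had 12.5, 11.3 and 9.71 CPM in sham and 4.71, 4.33 and 7.44 CPM in mice 4, 5 and 6. Every 1-day library was lower than every sham library, with mouse 6 again the nearest to sham (log2 fold -1.05, SE 0.18, adjusted p = 7.11e-04, 2.07-fold lower). The call held under all 18 alternatives, with a log2 fold of -0.59 with total counts.

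Bbc3 (ENSMUSG00000002083, chr7:16308393-16318205, plus strand), a p53 target that encodes Puma, had 0.502, 0.809 and 0.447 CPM in sham and 0.996, 1.19 and 0.538 CPM at 1 day. Mice 4 and 5 were above all sham libraries and mouse 6 was below sham mouse 2, so the groups overlapped (log2 fold 0.60, 95% interval -0.16 to 1.35, adjusted p = 0.164). The gene was called without mouse 6 (log2 fold 0.81, adjusted p = 0.0407).

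Forkhead (FOXO) factors are textbook activators of Bcl2l11 and Bbc3. Of all promoter windows 3.65% held the forkhead motif TGTTTAC or its reverse complement. Bcl2l11 held this motif in 1 of its 2 windows and Bbc3 in 1 of 3. The stretches around it (GRCm38.p6, plus strand, chr2:128125788-128125847 for Bcl2l11 and chr7:16310065-16310130 for Bbc3) are shown with the motif in capitals.
Bcl2l11: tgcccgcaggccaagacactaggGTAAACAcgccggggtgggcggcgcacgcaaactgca
Bbc3: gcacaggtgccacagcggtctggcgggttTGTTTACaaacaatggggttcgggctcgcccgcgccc
Transcripts of the factor genes themselves, named after their values were seen, were lower at 1 day. Foxo3 had 55.1, 52.1 and 55.1 CPM in sham and 27.3, 25.9 and 39.5 CPM at 1 day (log2 fold -0.81, SE 0.15, adjusted p = 8.64e-04). Foxo1 fell by 0.69 on the log2 scale (SE 0.10, adjusted p = 2.61e-04), and both calls ended with total counts (-0.35 and -0.21). Of the genes carrying the motif, Bcl2l11 fell, and Bbc3, with low counts and a wide interval, was not called at 1 day. Activity of the factors was not measured, and their part in these values was not tested.

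Among the anti-apoptotic genes Bcl2l1 and Bcl2l2 rose at 1 day. Bcl2l1 (ENSMUSG00000007659, chr2:152780668-152831728, minus strand) had 11.4, 10.2 and 11.95 CPM in sham and 23.5, 22.6 and 17.9 CPM in mice 4, 5 and 6. All 1-day libraries were above sham (log2 fold 0.94, SE 0.24, adjusted p = 0.00729, 1.92-fold). Counts per gene do not separate its long splice form, which protects cells, from the short form, which promotes death. Bcl2l2 (ENSMUSG00000089682, chr14:54883377-54888234, plus strand) had 14.99, 14.8 and 12.7 CPM in sham and 18.9, 18.9 and 17.2 CPM at 1 day, a smaller difference without overlap (log2 fold 0.37, SE 0.09, adjusted p = 0.00552). It shares 13.3% of its exonic bases with the annotated gene Gm20521 on the same strand.

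Mcl1 (ENSMUSG00000038612, chr3:95658788-95663176, plus strand), which encodes a short-lived protein that heart muscle needs, was at 96.9, 87.6 and 99.4 CPM in sham and 103.1, 106.0 and 101.9 CPM at 1 day. The groups did not overlap but differed by little, with a log2 fold of 0.13 (95% interval -0.07 to 0.34, adjusted p = 0.257). Bcl2 (ENSMUSG00000057329, chr1:106538178-106714274, minus strand), the founding member, had 11.1, 7.65 and 9.59 CPM in sham and 12.2, 11.9 and 9.59 CPM at 1 day. These groups overlapped (log2 fold 0.26, 95% interval -0.13 to 0.65, adjusted p = 0.232). Under total counts both were called, at 0.62 for Mcl1 and 0.75 for Bcl2, where the median gene was at 0.53.

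**Figure D2:**
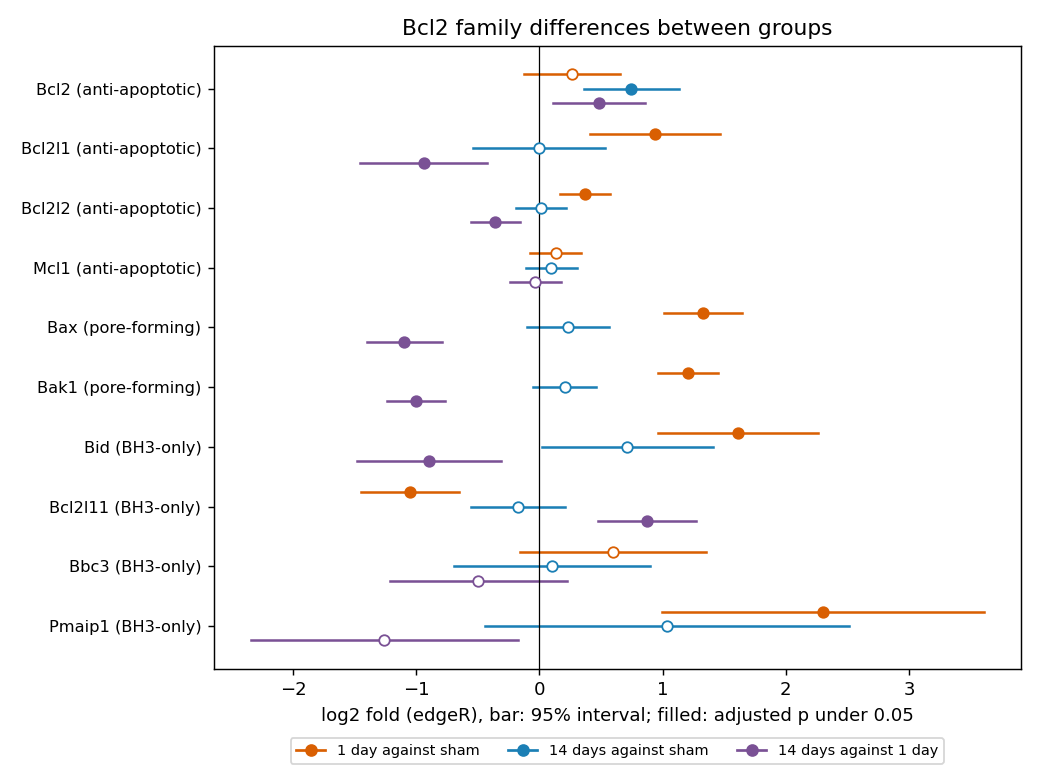
Points give the log2 fold of each member in the 3 comparisons and lines its 95% interval, with filled points for adjusted p under 0.05. At 1 day 6 filled points lie to the right of 0 and that of Bcl2l11 to the left, whereas against sham at 14 days Bcl2 is the 1 filled point.

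At 14 days after I/R, 1 of the 10 genes was called against sham, and it was Bcl2. Over all tested genes 14.4% were called, 8.75% higher and 5.64% lower (with total counts 720 higher and 112 lower in place of 1236 and 797). Bcl2 had 12.1, 16.9 and 18.2 CPM in libraries A, B and C against 7.65 to 11.1 CPM in sham. Groups did not overlap for Bcl2 and Bak1, both higher, where 39.4% of all genes did not overlap and 21.0% were higher, and for Bcl2 library A was the nearest to sham. Means were 15.8 ± 3.22 and 9.43 ± 1.71 CPM (SD, n = 3 per group), with a log2 fold of 0.74 (SE 0.17, adjusted p = 0.0189, 1.68-fold). The call ended without sham mouse 2 (log2 fold 0.60, adjusted p = 0.0953), sham mouse 3 (0.75, 0.0574), library B (0.69, 0.0777) or library C (0.62, 0.0709).

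Marker sums of cell types differed in their order across the 14-day libraries. Summed fibroblast markers (7 genes) were 1922, 3110 and 4753 CPM in A, B and C and 517.4 to 957.8 CPM in sham. Summed macrophage and monocyte markers (9 genes) were 197.7, 316.1 and 373 CPM, and 129.6 to 143.1 CPM in sham. The macrophage sum was 241.2 to 265.1 CPM at 1 day. T and NK cell markers (6 genes, with Cd3e, Cd3g and Nkg7 at 0 in 1 or more libraries) summed to 0.866, 2.08 and 1.80 CPM, against 0.539 to 0.963 CPM in sham. For these lists, and for neutrophil, B cell and proliferation markers, library A was the lowest of the 3, as it was for Bcl2. Summed cardiomyocyte markers (21610, 17870 and 15890 CPM), smooth muscle and pericyte markers (566.4, 554.5 and 483.5 CPM) and red blood cell genes (119.9, 99.3 and 113.8 CPM) were highest in A. Endothelial markers were highest in library B (425.4, 432.7 and 342.6 CPM). The part of any of these cells in the level of Bcl2 was not tested.

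The members raised at 1 day were nearer to sham at 14 days. Bax had 3.19, 3.93 and 3.802 CPM in libraries A, B and C (log2 fold against sham 0.23, 95% interval -0.10 to 0.56) and Bak1 6.16, 7.18 and 6.75 CPM (0.20, interval -0.05 to 0.46). Both lay slightly above sham on average, and neither was called. Bid had 0.623, 0.997 and 1.43 CPM, with library A inside the sham range and B and C above it. Its log2 fold was 0.71 (adjusted p = 0.155), and 0.96 without library A (adjusted p = 0.033). Bcl2l1 was split, at 16.4 CPM in library A and 8.33 and 8.63 CPM in B and C, so that A lay above all sham libraries and B and C below them (log2 fold 0.00, 95% interval -0.54 to 0.54). Bcl2l2 (14.2, 14.0 and 14.8 CPM), Mcl1 (104.1, 98.8 and 100.7 CPM) and Bcl2l11 (9.80, 10.7 and 9.28 CPM) had log2 folds of 0.01, 0.10 and -0.17, with adjusted p of 0.521 or more. Bbc3 (0.519, 0.674 and 0.777 CPM) and Pmaip1 (0.139, 0.645 and 0.491 CPM) overlapped sham, with wide intervals of -0.69 to 0.89 and -0.44 to 2.52.

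Set directly against 1 day, 5 members were lower at 14 days, namely Bax (log2 fold -1.10, SE 0.14), Bak1 (-1.0, SE 0.11), Bcl2l1 (-0.94, SE 0.23), Bid (-0.90, SE 0.27) and Bcl2l2 (-0.36, SE 0.09). Bcl2l11 (0.87, SE 0.18) and Bcl2 (0.48, SE 0.17) were higher. Over all genes 51.9% were called, 25.1% higher and 26.8% lower (with total counts 1066 higher and 5469 lower in place of 3547 and 3788). Ranges did not overlap for 6 members, 1 higher and 5 lower, where 56.3% of all genes did not overlap, 27.3% higher and 29.0% lower. Adjusted p ran from 5.17e-05 for Bak1 to 0.0341 for Bcl2, and CPM of Bcl2 overlapped between these groups. Pmaip1 was just outside the threshold (-1.26, SE 0.49, adjusted p = 0.0507) and was called under 7 of 17 alternatives. The comparisons share libraries, so their folds are not independent. The calls of Bcl2l11 and Bcl2 ended with total counts (0.50, adjusted p = 0.0657 and 0.10, adjusted p = 0.748), where the median gene moved to -0.38. That of Bid ended without mouse 4 (-0.79, adjusted p = 0.0709) or library B (-0.88, 0.0511), and that of Bcl2 without mouse 5 (0.52, 0.0603), mouse 6 (0.39, 0.0826), library B (0.43, 0.103) or library C (0.39, 0.085).

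Levels of different genes were compared per length, as CPM per kb of exon. The length counts all annotated exon bases of a gene, not those of the transcripts expressed here, and the order depends on it. Mcl1 was the most abundant member in every group, with 27.7 ± 1.83 CPM per kb in sham mice (SD, n = 3), 30.3 ± 0.625 a day after I/R and 29.6 ± 0.784 after 14 days. It made up 68.1%, 57.4% and 67.2% of the summed level per kb of the 10 genes in these groups. In sham Bcl2l2 followed (3.17), then Bcl2l1 (2.44), Bak1 (2.41), Bax (1.96), Bcl2l11 (1.39), Bcl2 (1.03), Bbc3 (0.276), Bid (0.175) and Pmaip1 (0.0856 CPM per kb). Of neighbours in this order, Bcl2l1 and Bak1 alone had ranges that overlapped.

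At 1 day the order per kb differed. Bak1 (5.57 CPM per kb) and Bax (4.93) stood next to Mcl1, ahead of Bcl2l1 (4.65) and Bcl2l2 (4.12), and these 4 neighbours overlapped pair by pair. Without division by length, mean CPM at 1 day put Bcl2l1 (21.3) and Bcl2l2 (18.4) above Bak1 (13.4) and Bax (7.77). Annotated exon lengths are 4.59 and 4.46 kb for the former pair and 2.41 and 1.58 kb for the latter. Bcl2 (1.23) followed without overlap, and Bcl2l11 (0.684) dropped behind it and overlapped Bid (0.525). At 14 days Bcl2l2 (3.22) was again next to Mcl1, and Bcl2 (1.72 CPM per kb) stood above Bcl2l11 (1.24), though their ranges overlapped.

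**Figure D3:**
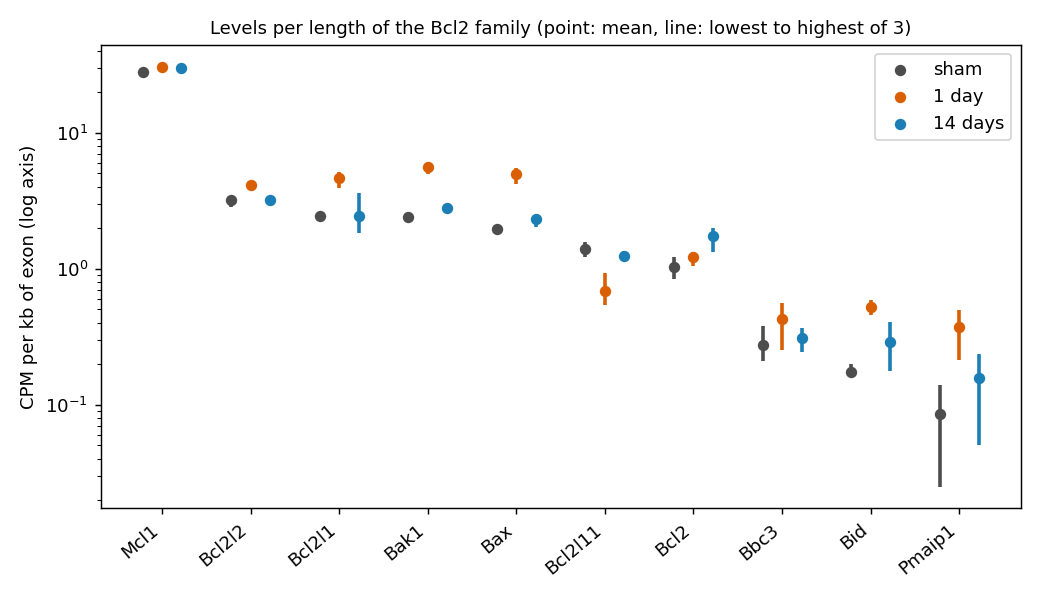
The log axis gives CPM per kb of exon, points the mean and lines the lowest to highest of 3 libraries, with genes in the order of their sham level. Mean Mcl1 is 27.7 CPM per kb or more in all groups, while Pmaip1, Bid and Bbc3 lie below 1 CPM per kb throughout.

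A ratio of counts within a library does not depend on scaling. For Bax over Bcl2 it was 0.274, 0.433 and 0.309 in sham, 0.710, 0.674 and 0.692 in mice 4, 5 and 6, and 0.264, 0.233 and 0.209 in libraries A, B and C. The 1-day libraries were all above sham and lay close together, and the 14-day libraries were all below sham. On the log2 scale the difference from sham was 1.06 at 1 day (means -0.53 ± 0.0380 and -1.59 ± 0.342, SD, n = 3 per group) and -0.50 at 14 days. The two-sided exact permutation p was 0.1 for each, the smallest that 3 against 3 allows, and 0.15 adjusted over the 6 ratio comparisons.

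For Mcl1 over Bcl2 the ratio was 8.75, 11.4 and 10.3 in sham, 8.46, 8.89 and 10.6 at 1 day and 8.58, 5.84 and 5.52 at 14 days. Sham and 1 day overlapped (log2 difference -0.12, exact permutation p = 0.5). The 14-day libraries were below sham (-0.63, exact permutation p = 0.1), with library A just under sham mouse 1, and they overlapped the 1-day range (-0.51, exact permutation p = 0.2).

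**Figure D4:**
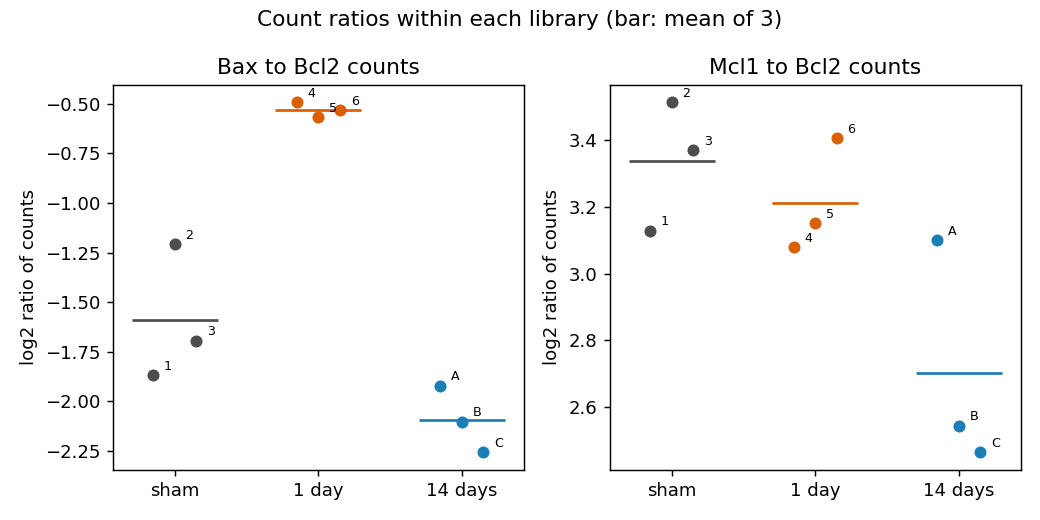
Points give the log2 ratio of counts within each library for Bax over Bcl2 (left) and Mcl1 over Bcl2 (right), and bars the mean of 3. The 1-day Bax to Bcl2 ratios sit between -0.57 and -0.49, above every other library, and library A stands apart from B and C on the right.

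The rest of the family was mixed. Of 14 further Bcl2 family and BH3-like genes 9 were tested, of which 2 rose and 4 fell at 1 day (median log2 fold -0.17) and 3 rose and 1 fell at 14 days (median 0.17), where 54.2% and 14.4% of all genes were called. Bcl2a1b, an anti-apoptotic gene of leukocytes, had 0.126, 0.101 and 0.0639 CPM in sham, 0.340, 0.596 and 0.358 CPM at 1 day and 0.346, 0.323 and 0.654 CPM at 14 days. Both later groups were above sham (log2 fold 2.02, adjusted p = 0.00703 and 2.04, adjusted p = 0.0253). Counts of Bcl2a1b were low (7 over the sham libraries, 38 at 1 day and 37 at 14 days). It shares 49.1% of its exonic bases with the annotated gene Gm29094 on the same strand. The gene has near-identical copies, Bcl2a1a and Bcl2a1d are not analysed here, and its counts are uncertain. Bok, a pore-forming relative of Bax, rose at 1 day (1.29, SE 0.28), with 0.741 to 1.38 CPM in sham and 1.61 to 2.94 CPM at 1 day.

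Of the BH3-only genes outside the 10, Bad, which growth factor signals restrain, was at 4.15 to 4.58 CPM in sham, 3.81 to 4.78 CPM at 1 day and 3.55 to 4.70 CPM at 14 days and was never called. Bmf, tied to the cytoskeleton, was not called at 1 day (-0.18) and rose at 14 days, to 3.98, 5.16 and 5.68 CPM from 2.30 to 3.07 CPM (0.82, SE 0.20, adjusted p = 0.0195). Bik fell both at 1 day (-0.94, SE 0.22, adjusted p = 0.00394) and at 14 days (-0.85, SE 0.22, adjusted p = 0.0257), and both calls ended with total counts (-0.44 and -0.75). The mitochondrial receptors for autophagy Bnip3 (-0.86, SE 0.32) and Bcl2l13 (-0.43, SE 0.11) fell at 1 day. Bnip3l also fell at 1 day (-0.47, SE 0.15, adjusted p = 0.0205) and rose at 14 days (0.52, SE 0.15). Its call at 1 day ended with total counts (-0.01) and without sham mouse 1 or 3 or mouse 4 or 5 (adjusted p up to 0.0722). With total counts the log2 fold of Bcl2l13 turned to 0.05. Leaving out sham mouse 2 or library C ended the calls of Bcl2a1b, Bmf, Bik and Bnip3l at 14 days, as did sham mouse 1 for all but Bik, sham mouse 3 for all but Bmf, and library B for all but Bcl2a1b, with adjusted p up to 0.161. Mouse 5 did so for Bnip3l (0.0521), and its 14-day call also ended with DESeq2 size factors in edgeR (0.50, adjusted p = 0.0519). The call of Bnip3 at 1 day held in 1 of the 9 fits without a library, that without mouse 6, and adjusted p reached 0.127 in the others. It also ended with total counts (-0.44, adjusted p = 0.13), with no filter (0.155) and with the groups compared alone (0.127).

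Downstream of the pore, 3 of 12 caspase and apoptosome genes rose at 1 day and 4 fell (median log2 fold 0.02), near the share over all genes (54.2%). Apaf1, the scaffold that cytochrome c activates, rose by 0.69 on the log2 scale (SE 0.16). Cycs, which encodes cytochrome c, fell by 1.22 on the log2 scale (SE 0.16), and the flavoprotein gene Aifm1 fell by 0.69 (SE 0.13). Casp8, the caspase that cuts Bid, rose by 0.88 at 1 day (SE 0.16, adjusted p = 0.00101). At 14 days 2 rose and 2 fell, where 14.4% of all genes were called, among them Casp8 (0.55, adjusted p = 0.0468) higher and Aifm1 (-0.42, adjusted p = 0.0472) lower. The calls of Casp8 and Aifm1 at 14 days ended with total counts and without any 1 of the 3 sham libraries, mouse 4, library B or library C, with adjusted p up to 0.191, that of Casp8 also with limma-voom (0.54, adjusted p = 0.0674) and that of Aifm1 with upper-quartile scaling (-0.41, 0.0524) and without mouse 5. At 1 day the call of Aifm1 ended with total counts (-0.22).

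Of 8 caspase inhibitors and their antagonists 2 rose and 1 fell at 1 day, where 54.2% of all genes were called. Birc5 (survivin), which is also a gene of dividing cells, rose from 0.251, 0.472 and 0.256 CPM to 1.54, 1.75 and 1.25 CPM (2.14, SE 0.30), beside summed proliferation markers (5 genes, Birc5 among them) of 14.95 to 16.2 CPM in sham and 54.4, 72.4 and 19.4 CPM in mice 4, 5 and 6. The antagonist Htra2 rose (0.56, SE 0.15) and Diablo fell (-0.40, SE 0.10), a fold that turned to 0.07 with total counts. Other genes share 43.7% of the exonic bases of Htra2 and 40.9% of those of Diablo, so both counts are uncertain. At 14 days, when 14.4% of all genes were called, 0 of 8 were called against sham by edgeR, DESeq2 or limma-voom, and 2 had an unadjusted edgeR p under 0.05.

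Upstream, 8 of 14 tested transcription factors and p53 targets rose at 1 day and 3 fell (median 0.67), and 1 was called at 14 days. Over all genes 29.4% were higher and 24.8% lower at 1 day, and 14.4% were called at 14 days. Trp53, which encodes p53, had 3.48, 4.14 and 4.79 CPM in sham and 9.12, 8.34 and 7.08 CPM at 1 day (1.0, SE 0.16, adjusted p = 3.94e-04). Its target Cdkn1a, a brake on the cell cycle, rose from 6.07, 4.52 and 3.90 to 17.8, 14.9 and 11.7 CPM (1.61, SE 0.18, adjusted p = 5.66e-05). Another p53 target, Ccng1, the most abundant gene of the list that fell, was lower (-1.28, SE 0.20). The part of p53 in these values was not tested. Stat3 (0.81, SE 0.10) and Atf4 (0.95, SE 0.11) were the most abundant that rose. At 14 days Mdm2, whose protein degrades p53, was lower (-0.27, SE 0.08, adjusted p = 0.0454), a call that ended with total counts, limma-voom, upper-quartile scaling or no filter, and without any 1 library except mouse 4 or 6 (adjusted p up to 0.148).

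Of 11 genes of Mcl1 turnover, BH3 protein binding and the outer membrane, 1 rose and 5 fell at 1 day, a share called that is near the 54.2% of all genes. Ywhaz, an adaptor that holds Bad, rose (0.77, SE 0.11), and the membrane channel Vdac1 (-0.87, SE 0.15) and the fission gene Dnm1l (-0.36, SE 0.11, 0.11 with total counts) fell. At 14 days 1 of the 11 was called, Ywhae, another adaptor of the same family (-0.34, adjusted p = 0.0328), and this call ended with total counts (-0.25), with no filter, and without any 1 sham library, library B or library C (adjusted p up to 0.129). Of 6 necroptosis and permeability transition genes 5 rose and 1 fell at 1 day (29.4% and 24.8% of all genes), with Ripk1 (0.73, SE 0.17) and Pgam5 (0.33, SE 0.09, with 58.1% of its exonic bases shared with a gene on the opposite strand) higher and Ppif (-0.62, SE 0.12), which encodes cyclophilin D, lower. At 14 days, against 14.4% of all genes, 0 of the 6 were called against sham by edgeR, DESeq2 or limma-voom, and 4 had an unadjusted edgeR p under 0.05. The calls of Vdac1 and Ppif ended with total counts (-0.41 and -0.15), that of Dnm1l without sham mouse 3 (-0.33, adjusted p = 0.0543) and that of Pgam5 without mouse 4 (0.23, 0.0591).

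Set against 1 day, the 14-day libraries had 9 of the 14 upstream genes lower and 3 higher, where 26.8% of all genes were lower and 25.1% higher. Trp53 (-0.65, SE 0.15), Cdkn1a (-1.10), Stat3 (-0.78) and Atf4 (-0.81) were lower, and Ccng1 (0.97), Foxo1 (0.65) and Foxo3 (0.66) were higher. Birc5 was lower (-1.65), and so was Htra2 (-0.62). Cycs (0.99), the executioner caspase Casp6 (0.93), Bmf (1.0), Bnip3l (1.0) and Vdac1 (0.67) were higher. The necroptosis effector Mlkl was lower (-0.78). Under total counts, where the median gene was at -0.38, the calls of Foxo1 (0.27), Foxo3 (0.29), Casp6 (0.54), Bmf (0.60) and Vdac1 (0.29) ended.

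**Figure D5:**
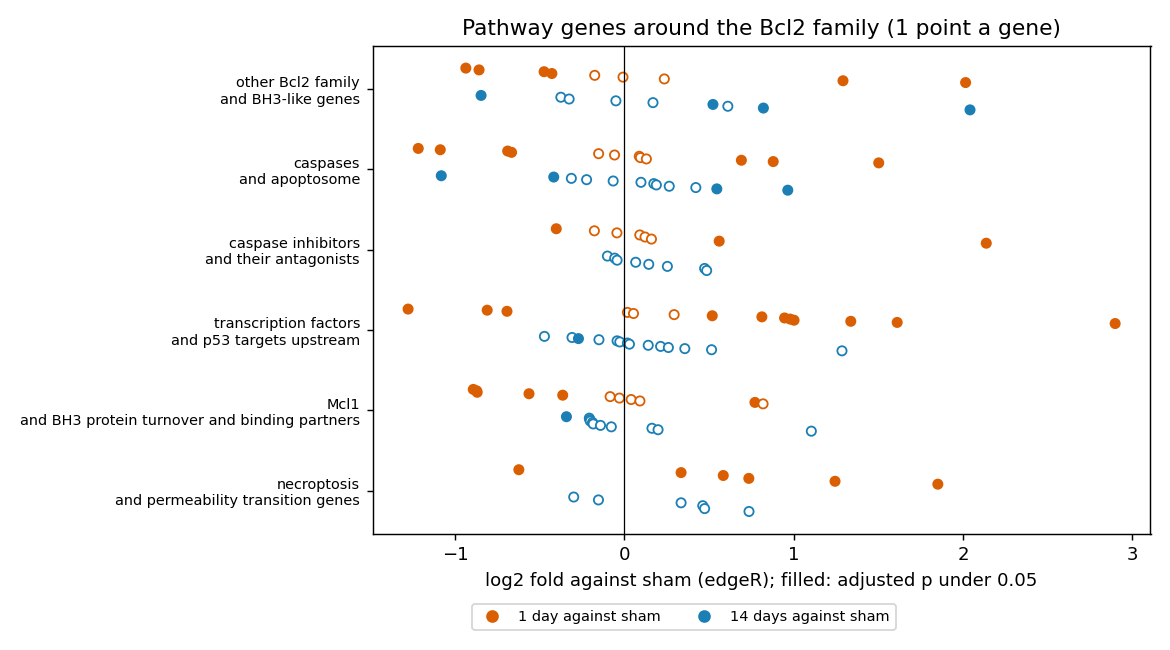
Each point is the log2 fold against sham of 1 tested gene of 6 pathway lists, at 1 day and at 14 days, filled where adjusted p was under 0.05. All 6 lists hold filled points on both sides of 0 at 1 day, and the caspase inhibitor and necroptosis lists have none at 14 days.

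Of 5527 named genes with at least 10 CPM on average, those with the pattern over the 9 libraries nearest to a member were found by the root mean square difference of centred log2 CPM. For Bax they were Eif4a1 (0.0743), Clic5 (0.0782), Mcam (0.0810) and Tsr1 (0.0861), and Eif4a1 had 13.2, 34.4 and 15.4 CPM on average in sham, at 1 day and at 14 days. For Bcl2 they were Sat1 (0.0852), Dock11 (0.102), Sntb2 (0.115) and Wipf1 (0.124), with 8.25, 9.51 and 13.2 CPM for Sat1. For Mcl1 they were Tpp2 (0.0299), Usp34 (0.0371), Smg1 (0.0445) and Itsn2 (0.0483), with a near-level 45.4, 49.5 and 47.4 CPM for Tpp2. This is a description of likeness and carries no test.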

How the data were processed

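RNA isolated with TRIzol was depleted of ribosomal RNA before stranded library preparation, per the labels' protocols. The submitters' processing notes name STAR 2.7.1a, GRCm38 and mm10. What the authors deposited are raw whole-number counts per Ensembl gene; no source used here gives the counting program, annotation or strand setting. Names, positions and exon lengths came from GENCODE M21 (36429 of 38293 IDs matched).

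All genes were tested with edgeR 4.0.16 (quasi-likelihood, robust, TMM, filterByExpr, 9 libraries in 1 fit), which kept 14124 genes. Intervals of log2 folds are 95%. Replicate libraries differed from each other by more than sampling noise (chi-square over degrees of freedom from 5.53 to 69.7). Members and lists were chosen with earlier results of these data known. All members are named; of other lists, the 2 most abundant called genes in the commoner direction and 1 in the other are named per comparison, and a few in any case (Bcl2a1a, Bcl2a1b, Bcl2a1d, Trp53, Cdkn1a, Bok, Bad, Bmf, Apaf1 and Birc5; 1 further gene is not reported here). Foxo1, Foxo3 and the 1-day values of Bik, Bnip3l and Casp8 were named after their values were seen. Those most like Bcl2, Bax and Mcl1 were the 4 nearest in centred log2(CPM + 0.25). Ratios used counts plus 0.5. Alternatives were DESeq2 1.42.0, its size factors in edgeR, total counts, upper-quartile scaling, no mitochondrially encoded genes, limma-voom (limma 3.58.1), no filter, 1 CPM in 3 libraries, the groups alone and each library left out. Promoter sequences are RefSeq's (GRCm38.p6), found for 9 of 10 members.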

Additional observations from a re-analysis of the deposited data

Results flagged for a closer look

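The effects of I/R at 1 day and at 14 days, both against sham, differed for 7 members by the direct test of 14 days against 1 day (edgeR adjusted p under 0.05), as 51.9% of all tested genes did. The log2 difference was -1.10 for Bax, -1.0 for Bak1, -0.94 for Bcl2l1, -0.90 for Bid, -0.36 for Bcl2l2, 0.48 for Bcl2 and 0.87 for Bcl2l11.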

How the results depend on the processing

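No paired analysis was possible because the groups share no replicate numbers. The 7 member calls at 1 day became 10 with total counts and 6 with the filter of 1 CPM, and the others gave 7 or 8. That filter left Bbc3 and Pmaip1 untested, so the call of Pmaip1 was missing there and no tested member lost its call. Leaving out single libraries gave 0 to 2 members and 478 (without sham mouse 2) to 3221 (without mouse 6) genes called at 14 days against sham, and total counts gave 832 genes in place of 2033. Uncalled members near 0 turned sign at 14 days against sham: Bcl2l1 with total counts (0.07), upper-quartile scaling (0.01), no filter (0.00) and the 1 CPM filter (0.00), and from -0.40 to 0.18 without single libraries; Bcl2l2 with DESeq2 (-0.02), its size factors (-0.01) and without mitochondrial genes (-0.00), and from -0.06 to 0.05 without single libraries; Bbc3 from -0.04 to 0.44 without single libraries. With total counts, at 1 day against sham, Bad turned to 0.49, Bmf to 0.33, Bcl2l13 to 0.05, Diablo to 0.07 and Dnm1l to 0.11, and at 14 days against sham Bad turned to 0.05 and Foxo1 to 0.06. Against 1 day, Bcl2a1b turned to -0.35 and Bik to -0.32, both uncalled with TMM scaling. Xiap and Diablo turned to -0.07, Mtch2 to -0.02 and Ppif to -0.06, genes that were called higher at 14 days with TMM scaling. Bad was also at 0.01 at 1 day with no filter, and without single libraries from -0.14 to 0.06 at 1 day and from -0.16 to 0.06 at 14 days against sham, and from -0.11 to 0.08 against 1 day. Bcl2a1b ranged from -0.31 to 0.30 and Bik from -0.05 to 0.22 against 1 day. The cause of these turns was not tested. Of 533 comparisons of a member's log2 fold under an alternative with its reported value, 492 kept the direction and the call. Low counts limit Pmaip1 (14 in all over sham) and Bbc3.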

Other observations

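Other cell type markers gave the setting of these values. Summed endothelial markers (6 genes) were 415.2 to 443.6 CPM in sham, 320.6 to 331.8 CPM at 1 day and 342.6 to 432.7 CPM at 14 days. Smooth muscle and pericyte markers (5 genes) were 465.4 to 482.1, 246.3 to 341.4 and 483.5 to 566.4 CPM. Red blood cell genes (5) were 93.4 to 153.7, 51.7 to 73.4 and 99.3 to 119.9 CPM. B cell markers (4 genes, with Cd79a at 0 in 1 or more libraries) were at most 2.04 CPM.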
